A study of Caenorhabditis elegans with 36 samples.

Results

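The interaction of xnp-1 and gsox-1 in L4 larvae is the effect of xnp-1 in a gsox-1 background set against its effect in the wild type. It was taken per gene as the log2 fold change of xnp-1;gsox-1 over gsox-1 minus the log2 fold change of xnp-1 over N2. A value of 0 means that xnp-1 went with the same fold in both backgrounds, a negative value that the fold was lower in the gsox-1 background, and a positive value that it was higher there. The same number results when the effect of gsox-1 in xnp-1 animals is set against its effect in N2. The samples were chosen by their titles, as the 12 poly(A) RNA-seq libraries of L4 larvae among the 36 samples of the series. Of the 46926 genes in the L4 count table, the 17492 that passed a filter on low counts were tested.

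The 4 groups were whole L4 larvae (the last larval stage of the nematode Caenorhabditis elegans) labelled xnp-1;gsox-1, gsox-1, xnp-1 and N2, the common wild-type strain, with 3 libraries labelled biological replicates in each. The series text calls the first 3 mutant backgrounds, and the labels name no allele, strain or number of animals. Per the labels, adults kept at 20 °C gave the embryos by bleaching, and larvae of every group then grew at 25 °C from L1 to L4. Embryo and L1 libraries of N2 and of animals labelled xnp1 were grown at 20 °C, the L1 larvae by keeping embryos in M9 buffer for about 11 hours, and were used here beside the L4 genes only. For those stages the series text speaks of a knockdown of xnp-1 rather than a mutant, and the labels do not say how it was made. Since whole animals were sequenced, fewer cells of a type and less RNA per cell cannot be told apart in any value below.

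xnp-1 encodes the worm orthologue of ATRX, a chromatin remodeller of the SWI/SNF family that in mammals works with histone H3.3 and keeps repeated DNA silent. Around the end of L4, the hermaphrodite gonad passes from sperm to oocytes, the intestine begins to make yolk, and the hypodermis ends its cycles of moulting and changes the collagens it secretes. Many of the genes below belong to these programmes. No role of gsox-1 is assumed here.

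Library totals ran from 39004451 to 45391494 counted reads. Principal component 1, with 62.0% of the variance, set the 3 xnp-1 libraries (143.8 to 173.5) apart from the other 9 (-74.4 to -40.4). Replicate 1 of xnp-1;gsox-1 stood apart on the second component (12.3% of the variance), at 104.8 against 10.6 and 4.62 for its other replicates, and counts over a gene list that moved by over 1.5 times without it are given both ways. Across genes, log2 levels of xnp-1;gsox-1 libraries correlated with those of gsox-1 libraries at Pearson r of 0.924 to 0.974 and with those of xnp-1 libraries at 0.815 to 0.879, while pairs of xnp-1;gsox-1 libraries correlated at 0.945 to 0.982. These correlations are across genes, which are not independent, and describe the libraries.

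The genes named in the genotypes were read first. xnp-1 (WBGene00006961, chromosome I, 4665933 to 4671738) was at 22.1, 28.7 and 37.3 CPM in xnp-1;gsox-1 libraries, 89.2, 97.9 and 89.5 CPM in gsox-1 libraries, 39.5, 48.2 and 50.3 CPM in xnp-1 libraries and 62.9, 74.3 and 89.3 CPM in N2 libraries. Every library whose label holds xnp-1 lay below every library whose label does not. The log2 fold was -1.65 (standard error, SE, 0.21, edgeR adjusted p = 0.00433) in the gsox-1 background and -0.71 (SE 0.21, adjusted p = 0.0131) in N2. Their difference was -0.94 (adjusted p = 0.0278). It missed the threshold without replicate 2 of xnp-1;gsox-1, replicate 1 or 2 of gsox-1, replicate 1 or 2 of N2 or replicate 2 or 3 of xnp-1, with adjusted p up to 0.074.

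gsox-1 (WBGene00009365, chromosome II, 10174648 to 10180040) was at 47.05, 68.1 and 96.2 CPM in xnp-1;gsox-1 libraries, 75.7, 77.4 and 82.5 CPM in gsox-1 libraries, 149.9, 159 and 179 CPM in xnp-1 libraries and 42.6, 61.5 and 66.7 CPM in N2 libraries. The gsox-1 transcript was not lower in libraries labelled gsox-1, with a log2 fold of 0.46 over N2 (SE 0.25, adjusted p = 0.882), so the count over the gene does not check that label, and gsox-1 below stands for libraries so labelled. In xnp-1 against N2 the gsox-1 transcript was higher by 1.51 on the log2 scale (adjusted p = 4.43e-04), and in xnp-1;gsox-1 against gsox-1 the value was -0.16. The interaction on its own transcript was -1.67 (SE 0.35, edgeR adjusted p = 0.00407).

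Across all genes, xnp-1 went with large changes in N2 and with few in the gsox-1 background. At an adjusted p under 0.05, 114 genes (0.652% of those tested) differed between xnp-1;gsox-1 and gsox-1, with 71 (0.406%) higher and 43 lower, or 107 and 40 when scaled by library totals alone. Between xnp-1 and N2, 8492 genes (48.5%) differed, with 4071 higher and 4421 lower. When scaled by library totals alone, 4315 were higher and 4050 lower, so the larger side depends on the scaling. The interaction itself was called in 5826 genes (33.3%), of which 3007 (17.2% of those tested) were positive and 2819 (16.1%) negative. That split was 2720 to 3057 with DESeq2's size factors and 3021 to 2778 with library totals. Counts over the gene lists below are to be read beside these shares. gsox-1 against N2 gave 4 calls (0.0229%), and xnp-1;gsox-1 against xnp-1 gave 7731 (44.2%). The median absolute log2 fold over all genes was 0.365 for xnp-1;gsox-1 over gsox-1 and 0.844 for xnp-1 over N2. Without replicate 1 of xnp-1;gsox-1 the interaction calls numbered 5956, with 2925 positive and 3031 negative. The count for xnp-1;gsox-1 against gsox-1 was 591 with DESeq2 and 23 when just those 2 groups were fitted. It was 38, 39 and 51 without replicate 1, 2 or 3 of gsox-1, 53 and 73 without replicate 2 or 3 of xnp-1;gsox-1, and 72, 64 and 60 without replicate 1, 2 or 3 of xnp-1. At an unadjusted p under 0.05, 2328 genes differed between xnp-1;gsox-1 and gsox-1.

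**Figure D1:**
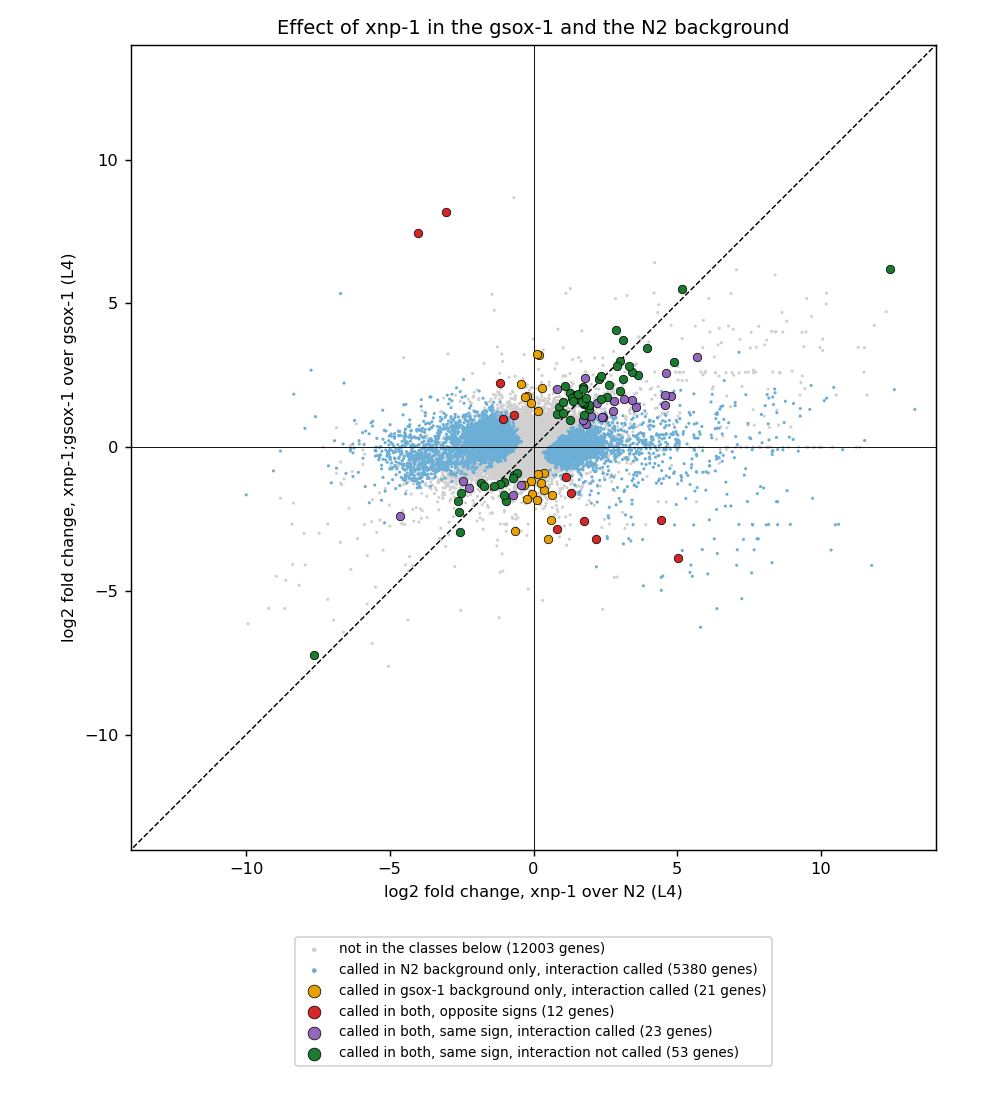
Each point is 1 of 17492 genes, with the log2 fold change of xnp-1 over N2 on the x axis and of xnp-1;gsox-1 over gsox-1 on the y axis, coloured by which effects passed the threshold, and on the dashed line the effects are equal. As follows from the calls that define these classes, most of the 5380 blue genes lie near the horizontal line at 0, and the 53 green genes lie near the dashed line.

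Genes changed by xnp-1 in N2 showed little of that change beside gsox-1. The 4071 genes higher in xnp-1 than in N2 had a median log2 fold of 1.39 there. The same genes had a median of 0.037 in xnp-1;gsox-1 over gsox-1, where 53.3% leaned the same way, 56 were called higher and 7 were called lower. The 4421 genes lower in xnp-1 than in N2 had medians of -0.030 in xnp-1;gsox-1 over gsox-1 and -1.52 in xnp-1 over N2, with 20 called lower and 5 called higher in the gsox-1 background. These comparisons share no library. Over all tested genes the log2 folds in the 2 backgrounds correlated at Pearson r = 0.208 and Spearman rho = 0.0988, as a description across genes.

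By their calls, 5380 genes (30.8%) changed in N2, did not pass the test in the gsox-1 background and had a called interaction. Their median absolute fold was 0.30 on the log2 scale in the gsox-1 background and 1.6 in N2. They were chosen by those calls, so a small fold in the first and a large one in the second follow from the choice. A further 3024 genes changed in N2 with neither the interaction nor the effect in the gsox-1 background called. In 390 genes the interaction was called and neither effect was. Of the 114 genes called in the gsox-1 background, 76 were called with the same sign in N2, 12 with the opposite sign, and 26 not at all in N2. The sign of the called interactions was the same on the linear CPM scale (counts scaled to library size) in 5823 of 5826 genes.

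Yolk genes were among those with the largest negative values. Vitellogenins (vit) are yolk proteins made by the adult hermaphrodite intestine. vit-2 (WBGene00006926, chromosome X, 5101042 to 5106169) was at 2.37, 5.29 and 3.13 CPM in xnp-1;gsox-1 libraries, 19.6, 17.6 and 103 CPM in gsox-1 libraries, 5382, 8156 and 10294 CPM in xnp-1 libraries and 9.72, 173 and 101.2 CPM in N2 libraries. The xnp-1 libraries lay far above the other 9, and the xnp-1;gsox-1 libraries lay below all others. On the log2 scale, vit-2 had a fold of -3.70 in xnp-1;gsox-1 over gsox-1 (SE 0.94, adjusted p = 0.126), one of 6.39 in xnp-1 over N2 (SE 1.06, adjusted p = 4.54e-04), and an interaction of -10.09 (95% interval -13.18 to -7.0, edgeR adjusted p = 5.04e-04).

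vit-1 (chromosome X), a vitellogenin too, went in opposite directions in the 2 backgrounds. It was at 3.63, 7.34 and 6.89 CPM in xnp-1;gsox-1 libraries, 82.3, 75.4 and 99.0 CPM in gsox-1 libraries, 1592, 2273 and 2356 CPM in xnp-1 libraries and 31.5, 71.4 and 87.5 CPM in N2 libraries. No xnp-1;gsox-1 library overlapped a gsox-1 library and no xnp-1 library overlapped an N2 library. The log2 fold was -3.84 (SE 0.40, edgeR adjusted p = 9.39e-04) in the gsox-1 background and 5.03 (SE 0.42, adjusted p = 5.11e-06) in N2, and the interaction was -8.87 (SE 0.58, adjusted p = 7.90e-06). All 6 vitellogenins had a called negative interaction and all 6 rose in xnp-1 against N2, while vit-1 alone was called in xnp-1;gsox-1 against gsox-1. The medians of the 6 were -4.19 in the gsox-1 background and 6.23 in N2. vit-3, vit-4, vit-5 and vit-6 had interactions of -12.07, -11.96, -12.31 and -10.47. Among N2 and gsox-1 libraries these 4 genes varied widely, with vit-6 at 17.96 to 199 CPM in gsox-1 and 13.01 to 271 CPM in N2. vit-3, vit-4 and vit-5 are near-identical copies, so reads may be split or lost among them.

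Genes of the eggshell and oocyte surface were high in xnp-1 too, with no calls in the gsox-1 background, where 0.652% of all genes were called. egg-2, a receptor-like protein of the oocyte surface needed for sperm entry, was at 7.12, 8.33 and 9.03 CPM in xnp-1;gsox-1 libraries, 7.13, 6.21 and 7.13 CPM in gsox-1 libraries, 155, 128 and 155 CPM in xnp-1 libraries and 7.82, 8.85 and 7.70 CPM in N2 libraries. The xnp-1 libraries lay above all others, and the other 9 lay within a narrow range. Its interaction was -3.91 (SE 0.23, edgeR adjusted p = 4.52e-06), from a log2 fold of 0.26 in the gsox-1 background and 4.17 in N2. egg-5 and egg-3, pseudophosphatases of the passage from egg to embryo, and gna-2, an enzyme of the sugar precursor of the chitin eggshell, had interactions of -3.73, -3.67 and -3.33. All 15 tested genes of the eggshell and oocyte surface had a called negative interaction, against 16.1% of all genes. Their median log2 fold was 0.17 in the gsox-1 background and 4.37 in N2.

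**Figure D2:**
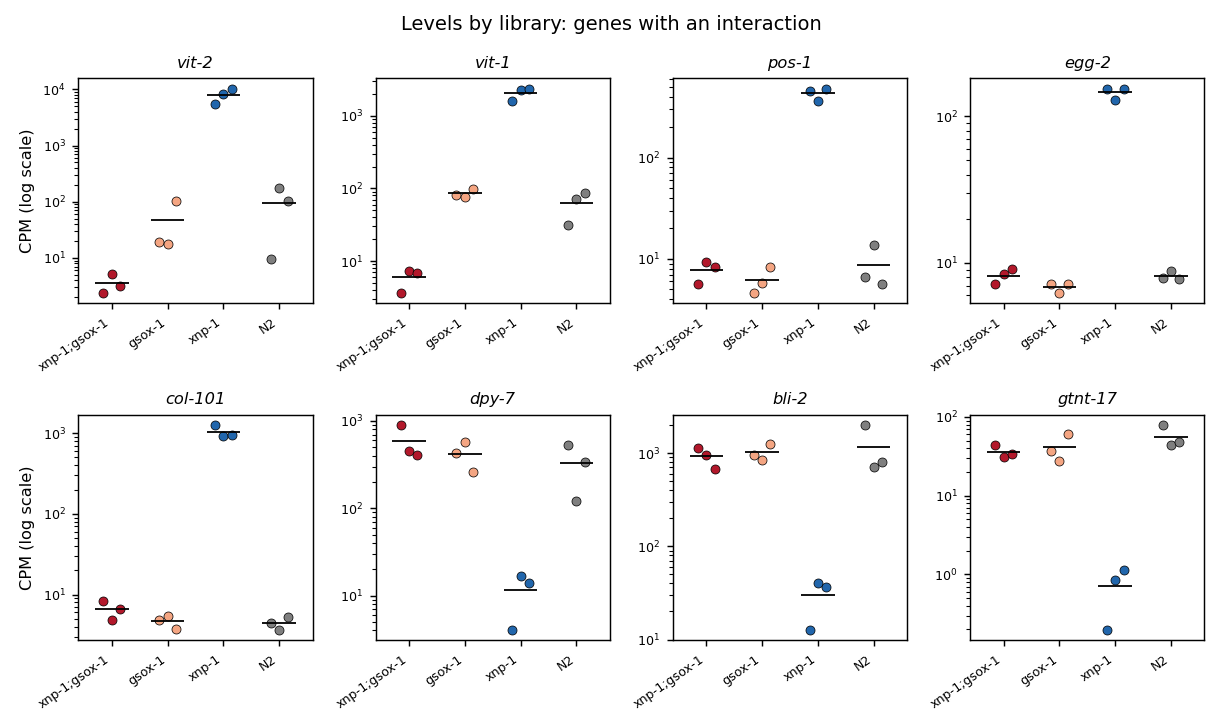
Levels of 8 genes in CPM on log axes, 1 panel per gene, with a point for each of 3 libraries per group and a bar at the group mean. vit-2, vit-1, pos-1, egg-2 and col-101 were high in the xnp-1 libraries, and dpy-7, bli-2 and gtnt-17 were low there, with vit-1 lowest in xnp-1;gsox-1.

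Regulators that mothers load into eggs behaved alike. pos-1, a zinc-finger protein that controls translation in the early embryo, was at 5.67, 9.33 and 8.24 CPM in xnp-1;gsox-1 libraries, 4.60, 5.73 and 8.38 CPM in gsox-1 libraries, 451, 364 and 481 CPM in xnp-1 libraries and 6.58, 13.8 and 5.61 CPM in N2 libraries, with an interaction of -5.33 (SE 0.51, edgeR adjusted p = 6.96e-05). spn-4, an RNA-binding protein of early blastomeres, was at 17.1 to 38.2 CPM in xnp-1;gsox-1, 28.3 to 33.1 in gsox-1, 433 to 521 in xnp-1 and 24.9 to 39.98 in N2, with an interaction of -3.97. Those of puf-11, of the Pumilio family, and mei-2, a katanin subunit of the meiotic spindle, were -4.01 and -2.81. mei-2 was at 14.3, 12.6 and 11.9 CPM in xnp-1;gsox-1, above the 7.93, 8.45 and 7.44 CPM of gsox-1, a log2 fold of 0.70 (adjusted p = 0.083), which missed the threshold. All 16 maternal RNA-binding regulators had a called negative interaction, with medians of 0.076 in the gsox-1 background and 3.86 in N2.

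Germ plasm genes followed, in 14 of 16 cases. meg-1, which acts in the P granules of the embryo, was at 0.0896, 0.874 and 0.337 CPM in xnp-1;gsox-1 libraries, 0.141, 0.680 and 0.573 CPM in gsox-1 libraries, 114, 115 and 146 CPM in xnp-1 libraries and 0.149, 0.488 and 0.392 CPM in N2 libraries, with an interaction of -8.57 (SE 0.94, edgeR adjusted p = 1.40e-04). nos-2, a Nanos-type translational repressor, was at 0.739 to 1.68 CPM in xnp-1;gsox-1, 0.390 to 0.610 in gsox-1, 85.2 to 95.2 in xnp-1 and 0.588 to 1.83 in N2, with an interaction of -5.16. meg-3, a scaffold protein of the same granules, had an interaction of -4.29. glh-3, a Vasa-like helicase present in germ cells at all stages, differed less, at 18.1 to 19.6 CPM in xnp-1;gsox-1, 19.1 to 19.7 in gsox-1, 59.8 to 62.7 in xnp-1 and 15.7 to 19.2 in N2, with an interaction of -1.85 and a small spread.

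Meiosis and germline stem cell genes had smaller values in the same direction. All 33 tested meiosis genes rose in xnp-1 against N2, where 23.3% of all genes did, and 27 had a called negative interaction, against 16.1%. None passed the test in the gsox-1 background, where just 0.652% of all genes did. spo-11, the enzyme that makes meiotic double-strand breaks, was at 17.5, 17.5 and 13.7 CPM in xnp-1;gsox-1 libraries, 10.4, 12.1 and 11.8 CPM in gsox-1 libraries, 62.7, 48.4 and 48.4 CPM in xnp-1 libraries and 13.1, 12.8 and 10.4 CPM in N2 libraries, with an interaction of -1.63. zim-2, a zinc-finger protein of chromosome pairing, and zhp-3, a RING-finger protein of crossovers, had interactions of -2.30 and -1.6. Of 15 regulators of germline stem cells and differentiation, 11 had a called negative interaction and none a positive one. glp-1, the Notch-type receptor that keeps germ cells dividing, was at 26.8, 42.1 and 61.1 CPM in xnp-1;gsox-1 libraries, 47.4, 45.05 and 49.7 CPM in gsox-1 libraries, 154, 178 and 210.2 CPM in xnp-1 libraries and 18.6, 39.9 and 45.6 CPM in N2 libraries (interaction -2.51, SE 0.47). sygl-1, which acts downstream of glp-1, and nos-1, a Nanos-type repressor, had interactions of -2.6 and -2.51. gld-3, an RNA-binding protein that drives entry into meiosis, had one of -2.97. For glp-1 and gld-3, replicate 1 of xnp-1;gsox-1 and replicate 1 of N2 were the lowest of their groups.

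Sperm genes did not share that direction. Of 86 tested, 28 had a called positive interaction and 1 a negative one (2 without replicate 3 of xnp-1;gsox-1), with medians of 0.65 in the gsox-1 background and -0.46 in N2. spe-4, a presenilin-type protein of sperm organelles, was at 35.6, 32.2 and 29.02 CPM in xnp-1;gsox-1 libraries, 23.5, 22.6 and 38.9 CPM in gsox-1 libraries, 7.27, 11.7 and 7.08 CPM in xnp-1 libraries and 27.95, 38.5 and 28.1 CPM in N2 libraries, and its interaction was 2.05 (SE 0.38, edgeR adjusted p = 0.00202). Its 3 xnp-1 libraries lay below all 9 others. The negative one was spe-39, which acts in vesicle traffic in many cells, with an interaction of -1.85. The summed level of the sperm markers overlapped among all 4 groups, at 1878 to 2406 CPM in xnp-1;gsox-1, 793 to 2001 CPM in gsox-1, 1831 to 2197 CPM in xnp-1 and 1597 to 3036 CPM in N2. Major sperm protein genes are near-identical copies whose reads may be split.

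Summed levels of stage markers restate these results and are no separate evidence. The vitellogenin markers and the oocyte and eggshell markers are the lists given above. The larval moult markers include dpy-7, bli-2 and mlt-8, which are named below for their interactions. Of these, bli-2 is a collagen of the adult cuticle, so that sum is not of larval genes alone. The summed level of 15 oocyte and eggshell genes was 216 to 472 CPM in xnp-1;gsox-1, 327 to 479 CPM in gsox-1, 6506 to 7939 CPM in xnp-1 and 269.8 to 596 CPM in N2. The summed level of 12 larval moult genes was 4269 to 7050.0 CPM in xnp-1;gsox-1, 7506 to 7843 CPM in gsox-1, 194 to 498 CPM in xnp-1 and 3924 to 7289 CPM in N2. No marker of either list was at 0 in any group. For 6 vitellogenins the sums were 7.79 to 20.98 CPM in xnp-1;gsox-1, 113 to 449 CPM in gsox-1, 17337 to 30617 CPM in xnp-1 and 56.1 to 583 CPM in N2. All larvae were labelled L4 and no finer age is given, so a difference in developmental age between groups and an effect of genotype cannot be told apart.

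**Figure D3:**
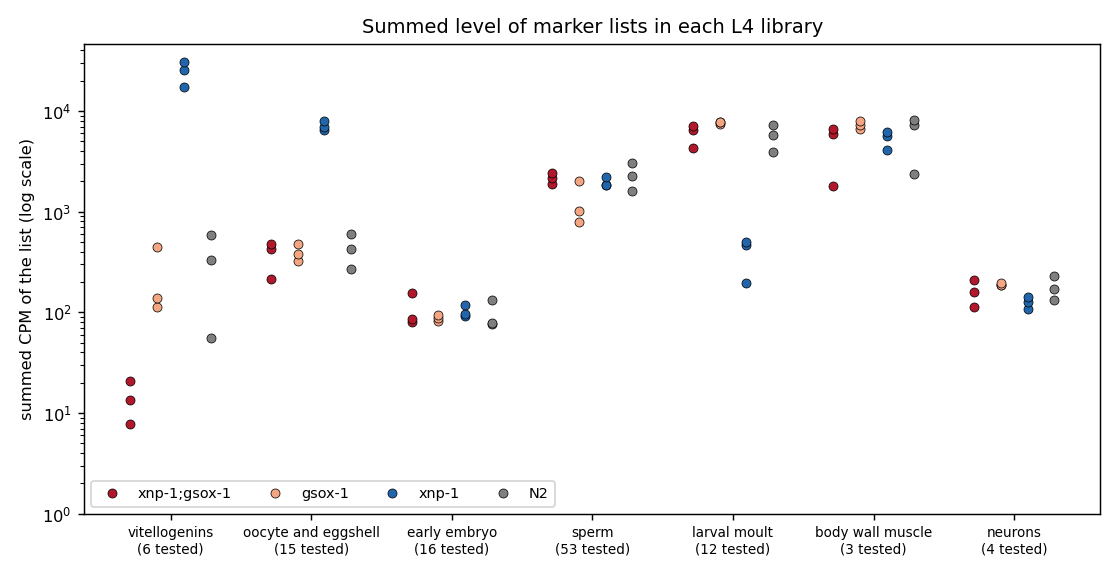
Summed CPM of 7 marker lists on a log axis, with a point for each of 3 libraries in xnp-1;gsox-1, gsox-1, xnp-1 and N2, from left to right. Vitellogenins and oocyte genes were high and moult genes low in the 3 xnp-1 libraries, whereas early embryo, sperm and neuron sums overlapped between xnp-1 and other groups.

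Markers of early embryos changed less in sum. They were at 80.2 to 157 CPM in xnp-1;gsox-1, 81.7 to 94.8 CPM in gsox-1, 91.6 to 119.1 CPM in xnp-1 and 76.3 to 133 CPM in N2. Of the 43 markers in the table, 11 were at 0 in all xnp-1;gsox-1 libraries, 18 in all gsox-1 libraries, 2 in all xnp-1 libraries and 15 in all N2 libraries. pal-1, a Caudal-type homeobox regulator of posterior fate whose mRNA is loaded by the mother, was at 9.405, 10.6 and 10.4 CPM in xnp-1;gsox-1 libraries, 8.89, 9.44 and 10.6 CPM in gsox-1 libraries, 99.3, 82.7 and 103 CPM in xnp-1 libraries and 11.3, 11.3 and 9.61 CPM in N2 libraries (interaction -3.07, SE 0.22, edgeR adjusted p = 1.28e-05). skr-7, of the Skp1 family of ubiquitin ligase subunits, had 0 reads in xnp-1;gsox-1, 6 in gsox-1, 1289 in xnp-1 and 0 in N2. Taking 3 counts over a group as the floor, it was 424-fold higher in xnp-1 than in N2, and no fold is given in the gsox-1 background. Both mates of a pair count as reads here, so that floor is too low for a firm bound. Of 19 tested Skp1-related genes, 4 had a called negative interaction, among them skr-7, skr-10 at -4.35 and skr-17 at -1.63. The call of skr-7 was lost without replicate 2 of gsox-1, where 3 were called in the list. Of 25 tested early embryonic fate genes, 6 had a called negative interaction (3 without replicate 1 of xnp-1). The 4 and 6 genes were 21.1% and 24% of the 2 lists, against 16.1% of all genes.

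Cuticle genes of larval moults were among those with the largest positive values. dpy-7 (WBGene00001069, chromosome X, 7536467 to 7537792), a collagen of the furrows that ring the larval cuticle, was at 891, 453 and 409 CPM in xnp-1;gsox-1 libraries, 428, 573 and 264 CPM in gsox-1 libraries, 4.05, 16.8 and 13.8 CPM in xnp-1 libraries and 528, 122 and 335 CPM in N2 libraries. The xnp-1 libraries were lower than the other 9, which overlapped among the 3 other groups. Its log2 fold was 0.47 (SE 0.57, adjusted p = 0.674) in the gsox-1 background and -4.83 (SE 0.67, adjusted p = 1.35e-04) in N2, and the interaction was 5.30 (SE 0.86, edgeR adjusted p = 0.00107). dpy-9 and dpy-10, furrow collagens too, had interactions of 4.84 and 4.49. All 6 furrow collagens had a called positive interaction (17.2% of all genes), with medians of 0.29 in the gsox-1 background and -4.31 in N2.

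Other collagens that shape the body did the same in 12 of 14 cases, with none called negative. bli-2, a collagen of the struts between adult cuticle layers, was at 1131, 953 and 679 CPM in xnp-1;gsox-1 libraries, 958, 838 and 1245 CPM in gsox-1 libraries, 12.7, 40.3 and 36.9 CPM in xnp-1 libraries and 1981, 705 and 799 CPM in N2 libraries (interaction 5.14, SE 0.68, edgeR adjusted p = 3.77e-04). Replicate 1 of N2 was the highest of all libraries for bli-2. The interactions of lon-3, rol-6 and sqt-2, collagens that set body length and coiling, were 4.90, 4.35 and 4.32. Medians over the 14 were -0.35 in the gsox-1 background and -4.45 in N2.

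The wider col family of cuticle collagens split. Of 139 tested members, 43 had a called positive and 22 a called negative interaction. No member passed the test in xnp-1;gsox-1 against gsox-1 (0.652% of all genes did). In xnp-1 against N2, 32 rose and 68 fell (23.3% and 25.3% of all genes did). col-47, col-110 and col-79 led the positive side. col-47 was at 27.6, 14.4 and 13.1 CPM in xnp-1;gsox-1 libraries, 13.5, 16.8 and 8.41 CPM in gsox-1 libraries, 0.0494, 0.345 and 0.188 CPM in xnp-1 libraries and 22.1, 3.95 and 10.4 CPM in N2 libraries (interaction 6.45, SE 0.94, edgeR adjusted p = 5.97e-04). col-110 and col-79 had interactions of 5.38 and 5.34, and both were above 118.9 CPM in each library outside xnp-1 and below 10.34 CPM in each xnp-1 library.

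On the negative side of that family, col-101 (WBGene00000675, chromosome IV, 325435 to 327020) had the smallest SE of the 5 members named. It was at 8.40, 4.90 and 6.65 CPM in xnp-1;gsox-1 libraries, 4.90, 5.44 and 3.75 CPM in gsox-1 libraries, 1251, 927 and 959.9 CPM in xnp-1 libraries and 4.48, 3.66 and 5.30 CPM in N2 libraries. The xnp-1 libraries lay far above the other 9. The log2 fold was 0.50 (adjusted p = 0.394) in the gsox-1 background and 7.87 (adjusted p = 1.07e-07) in N2, with an interaction of -7.37 (95% interval -8.19 to -6.54, edgeR adjusted p = 4.36e-06). col-119, col-143, col-8 and col-20 had interactions of -8.46, -8.36, -8.19 and -6.86. Outside xnp-1 these genes were low and varied between libraries (col-119 was at 0.224, 23.8 and 6.96 CPM in N2), and the SE of the interactions were 1.86, 1.47, 1.26 and 1.45. The interaction of ule-3, named for expression in the uterus, was -8.13 (SE 1.72).

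Cuticlins, moulting factors and hedgehog-related genes sided with the furrow collagens. Of 34 cuticlins, 18 had a called positive and none a called negative interaction. cutl-28 was at 34.1, 34.9 and 34.7 CPM in xnp-1;gsox-1 libraries, 35.95, 39.6 and 38.9 CPM in gsox-1 libraries, 1.06, 1.72 and 1.36 CPM in xnp-1 libraries and 42.95, 20.7 and 36.1 CPM in N2 libraries, with an interaction of 4.44 (SE 0.37, edgeR adjusted p = 3.18e-05). Of 27 moulting genes, 15 were called positive and none negative. mlt-8, needed to shed the old cuticle, was at 294 to 387 CPM in xnp-1;gsox-1, 349 to 579 in gsox-1, 11.2 to 32.8 in xnp-1 and 424 to 519 in N2 (interaction 3.92). phg-1 and acn-1, a protein related to angiotensin-converting enzyme that is needed in moulting, had interactions of 3.68 and 3.32. Of 72 hedgehog-related and patched-related genes, which act in the hypodermis, 29 were called positive and 3 negative (5 without replicate 3 of xnp-1;gsox-1 or replicate 3 of N2). wrt-1, of the warthog class, was at 239 to 308 CPM in xnp-1;gsox-1, 282 to 348 in gsox-1, 4.55 to 12.6 in xnp-1 and 134 to 468 in N2 (interaction 4.70), and grl-15, of the ground-like class, had an interaction of 4.62. ptr-15 and ptr-19, of the patched-related class, had interactions of 3.47 and 3.06.

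The gtnt family and other genes of high positive interaction had the same order of groups. gtnt-18 was at 46.1, 39.4 and 37.2 CPM in xnp-1;gsox-1 libraries, 40.9, 29.5 and 54.8 CPM in gsox-1 libraries, 0.494, 0.837 and 0.7999 CPM in xnp-1 libraries and 84.9, 35.9 and 41.6 CPM in N2 libraries, with an interaction of 6.22 (SE 0.51, edgeR adjusted p = 3.18e-05). gtnt-17 and gtnt-31 had interactions of 6.08 and 5.06. Of 38 tested gtnt genes, 18 were called positive and 1 negative (2 without replicate 3 of xnp-1;gsox-1 or replicate 1 of N2). None passed the test in the gsox-1 background, where 0.652% of all genes did. The interactions of spp-13, a saposin-like protein, of spi-1, named as a serine protease inhibitor, and of srf-5, a gene of surface antigenicity, were 5.12, 5.02 and 5.20.

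Developmental timing genes were mixed, and 30.8% of them had a called interaction, against 33.3% of all genes. lin-42, a Period-type regulator whose mRNA cycles with the moults, was at 169.8, 538 and 502 CPM in xnp-1;gsox-1 libraries, 590.1, 494 and 597 CPM in gsox-1 libraries, 15.8, 49.8 and 42.1 CPM in xnp-1 libraries and 289, 427 and 593 CPM in N2 libraries (interaction 3.13, SE 0.67, edgeR adjusted p = 0.00464). lin-41, a protein of the larva-to-adult switch and of oocytes, was at 9.43, 27.2 and 51.8 CPM in xnp-1;gsox-1 libraries, 33.1, 27.7 and 29.4 CPM in gsox-1 libraries, 235, 306 and 356 CPM in xnp-1 libraries and 8.40, 27.1 and 42.7 CPM in N2 libraries, with an interaction of -3.55 (SE 0.82). Replicate 1 of xnp-1;gsox-1 was lowest of its group for both genes, and so was replicate 1 of N2. Of 13 heterochronic genes, 2 were called positive and 2 negative, against 5 and 3 without replicate 1 of xnp-1;gsox-1, and 1 was positive without replicate 3 of xnp-1;gsox-1, any 1 replicate of gsox-1, replicate 1 of xnp-1 or replicate 3 of N2. The median interaction of -0.024 turned positive without replicate 1 or 2 of xnp-1;gsox-1, replicate 2 of gsox-1 or replicate 1 of N2 (0.054 to 0.18).

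Chromatin and small RNA genes leaned with the germline. Of 17 DREAM and synMuv B genes, which repress germline genes in somatic cells, 13 had a called negative interaction, with medians of -0.093 in the gsox-1 background and 1.28 in N2. efl-1, an E2F-type subunit, was at 15.8, 15.9 and 18.1 CPM in xnp-1;gsox-1 libraries, 20.3, 20.6 and 16.1 CPM in gsox-1 libraries, 54.3, 49.3 and 55.3 CPM in xnp-1 libraries and 15.2, 18.001 and 18.2 CPM in N2 libraries (interaction -1.83, SE 0.23). lin-54, its DNA-binding partner in DREAM, had an interaction of -1.86. Of 17 heterochromatin and Polycomb-type genes, 14 were negative and 1 positive (none in 8 of the 12 fits without 1 library), with spr-5, a histone H3 lysine 4 demethylase, at -1.36, arle-14 at -1.55 and mes-4, a histone H3 lysine 36 methyltransferase of the germline, at -1.94. Of 60 Argonaute and small RNA pathway genes, 29 were negative and 2 positive (1 in 6 of the 12 fits without 1 library). hrde-1, a nuclear Argonaute of inherited silencing, was at 53.8, 85.9 and 123 CPM in xnp-1;gsox-1 libraries, 112.3, 111 and 123 CPM in gsox-1 libraries, 446, 467 and 564 CPM in xnp-1 libraries and 72.7, 109 and 107 CPM in N2 libraries (interaction -2.75, SE 0.39), and alg-5, an Argonaute too, had an interaction of -3.23. mut-2, a nucleotidyltransferase of RNA silencing, and tofu-5, a piRNA biogenesis factor, had interactions of -2.07 and -1.44.

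Histone H3.3, the histone that ATRX is known to work with in mammals, and its chaperones split by member. Of 8 genes, 2 were positive (1 without replicate 2 or 3 of xnp-1;gsox-1 or replicate 1 or 2 of gsox-1) and 2 negative. his-70, an H3.3-like gene, was at 37.1, 27.9 and 21.2 CPM in xnp-1;gsox-1 libraries, 16.9, 15.6 and 20.6 CPM in gsox-1 libraries, 2.13, 3.40 and 2.92 CPM in xnp-1 libraries and 29.3, 24.5 and 19.1 CPM in N2 libraries (interaction 3.81, SE 0.37, edgeR adjusted p = 7.33e-05). The chaperone genes asfl-1 and hira-1 had interactions of -1.76 and -1.58. Of 32 DNA damage genes, 26 had a called negative interaction, among them xpf-1, a structure-specific nuclease, at -1.54, polh-1, a translesion polymerase, at -1.53, mre-11, a nuclease of break repair, at -1.73, and msh-2, of mismatch repair, at -1.47.

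Genes of growth and body tissues had called shares near that of all genes, with calls that leaned positive except in the pan-neuronal list. An interaction was called in 37.5% of ribosomal protein, 31.8% of body wall muscle and 30% of pan-neuronal genes, against 33.3% of all genes. Over all genes, 17.2% were called positive and 16.1% negative. Of 80 ribosomal protein genes, 30 were called positive and none negative, with medians of 0.044 in the gsox-1 background and -0.63 in N2. That count rests on single libraries: it was 58 without replicate 1 of xnp-1;gsox-1, 7, 10 and 10 without replicate 1, 2 or 3 of gsox-1, 11, 9 and 7 without replicate 1, 2 or 3 of xnp-1, and 8 without replicate 1 of N2. rpl-39, of the large subunit, was at 630.0, 515 and 466 CPM in xnp-1;gsox-1 libraries, 370.1, 336 and 335 CPM in gsox-1 libraries, 260.5, 215 and 223 CPM in xnp-1 libraries and 620.2, 385 and 338 CPM in N2 libraries (interaction 1.57). Of 22 body wall muscle genes, 7 were positive (4 without replicate 1 of gsox-1 or replicate 3 of xnp-1) and none negative. Summed levels of 3 muscle markers were 1794 to 6679 CPM in xnp-1;gsox-1, 6637 to 8006 CPM in gsox-1, 4135 to 6183 CPM in xnp-1 and 2351 to 8109 CPM in N2, and the xnp-1 libraries lay below the gsox-1 libraries. Among neuropeptide genes, 33 were positive and 1 negative (33.7% of those tested), the negative count was 0 to 2 with 1 library left out (2 without replicate 1 of xnp-1;gsox-1), and the positive count was 14, 21 and 16 without replicate 1, 2 or 3 of gsox-1, 18, 20 and 12 without replicate 1, 2 or 3 of xnp-1 and 14 without replicate 1 of N2. Of 20 pan-neuronal genes, 3 were positive (1 without replicate 3 of gsox-1 or replicate 3 of xnp-1) and 3 negative. Summed levels of 4 neuron markers were 114 to 209 CPM in xnp-1;gsox-1, 186 to 196 CPM in gsox-1, 108 to 142 CPM in xnp-1 and 132 to 228 CPM in N2. The part of these differences in the counts above was not tested.

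Insulin-like, metabolic and stress genes gave single members with large values. An interaction was called in 25.8% of insulin-like peptide, 34.1% of glutathione S-transferase and 22.7% of heat shock genes, against 33.3% of all genes. For peroxisomal beta-oxidation the share was 71.4%. ins-35, an insulin-like peptide, was at 56.5, 42.2 and 33.5 CPM in xnp-1;gsox-1 libraries, 14.9, 15.4 and 9.32 CPM in gsox-1 libraries, 1.33, 2.95 and 2.42 CPM in xnp-1 libraries and 15.9, 7.81 and 13.9 CPM in N2 libraries. Its xnp-1;gsox-1 libraries lay above all others and its xnp-1 libraries below all others, with a log2 fold of 1.74 in the gsox-1 background (adjusted p = 0.0522, which missed the threshold), one of -2.48 in N2 (adjusted p = 2.05e-04) and an interaction of 4.22 (SE 0.51, edgeR adjusted p = 2.26e-04). Of 31 insulin-like peptide genes, 8 were positive and none negative, ins-27 among them at 3.56. Of 14 genes of peroxisomal beta-oxidation, which also makes ascaroside pheromones, 9 were positive and 1 negative, and acox-1.2, an acyl-CoA oxidase, had an interaction of 2.62. Of 44 glutathione S-transferases, 15 were positive (8 without replicate 1 of gsox-1, replicate 1 of N2 or replicate 3 of xnp-1, and 9 without replicate 2 of xnp-1) and none negative (1 without replicate 1 of xnp-1;gsox-1 or replicate 3 of gsox-1). gst-22 had an interaction of 1.96. gst-38 was at 21.3 to 50.7 CPM in xnp-1;gsox-1, 9.27 to 15.7 in gsox-1, 3.94 to 7.32 in xnp-1 and 11.9 to 22.9 in N2, with an interaction of 2.90. Heat shock genes split 3 positive to 2 negative of 22, with hsp-43 at -2.75. None of 7 fatty acid desaturases had a called interaction (1 negative without replicate 1 of xnp-1;gsox-1).

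**Figure D4:**
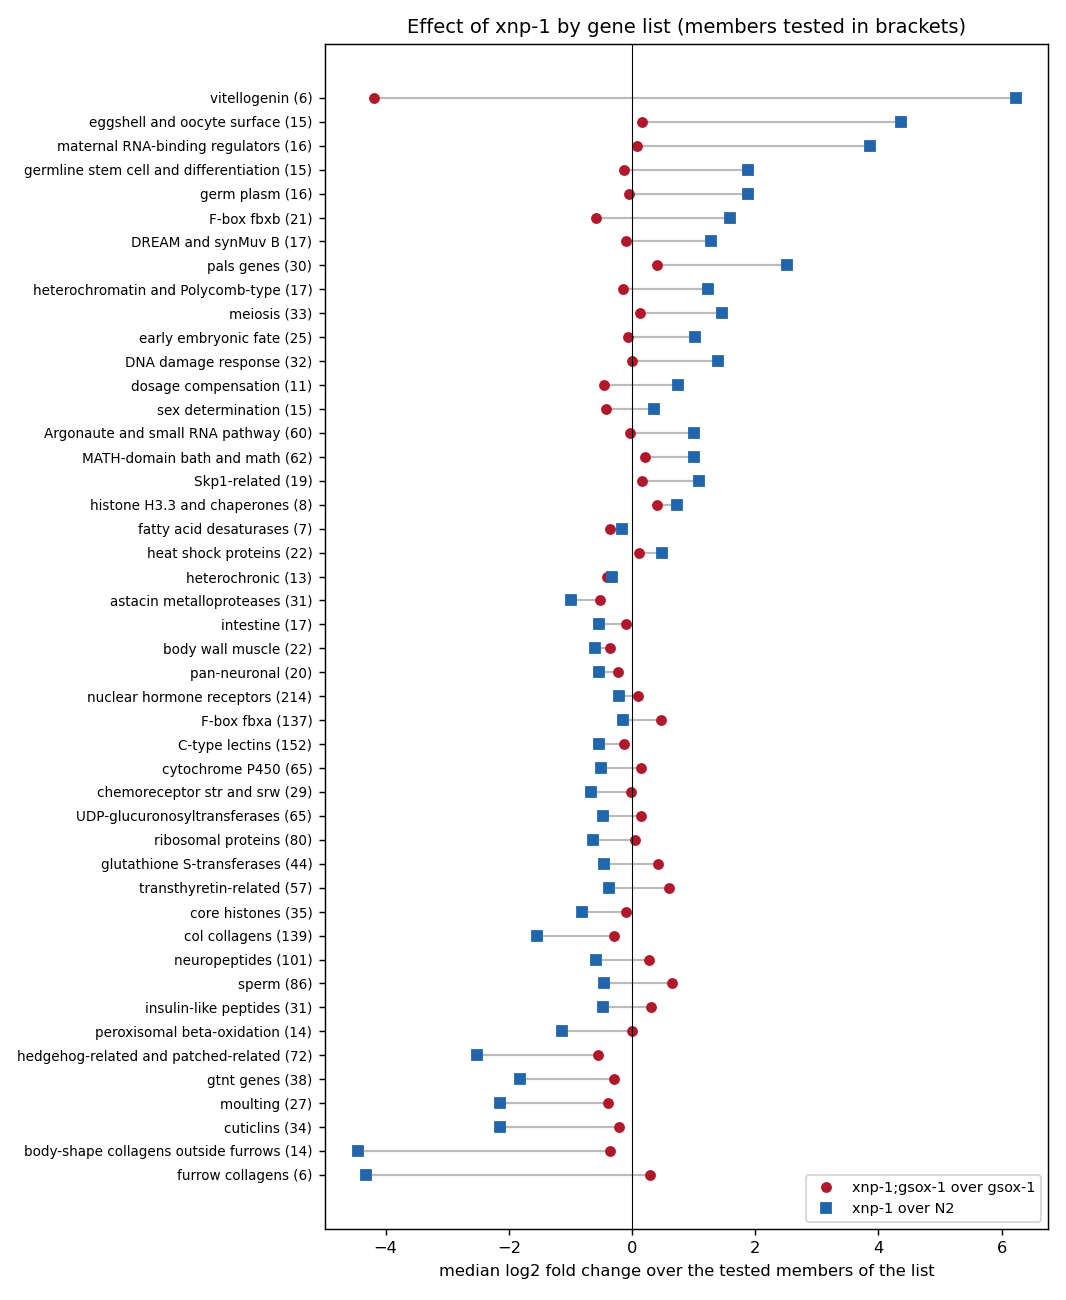
Median log2 fold change over the tested members of 46 gene lists, with a circle for xnp-1;gsox-1 over gsox-1 and a square for xnp-1 over N2, ordered by the median interaction. The circles lie near 0 for most lists, and vitellogenins are farthest from it at -4.19, while the squares run from -4.45 for body-shape collagens to 6.23 for vitellogenins.

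Over all 46 lists with tested members, the median log2 fold in the gsox-1 background ran from -4.19 (vitellogenins) to 0.65 (sperm). In N2 the medians ran from -4.45 (body-shape collagens) to 6.23 (vitellogenins). Over all genes tested the medians were 0.0062 in the gsox-1 background and -0.16 in N2. F-box and MATH-domain families, whose known members act in protein turnover, were mixed. An interaction was called in 28.5% of fbxa, 23.8% of fbxb, 37.1% of bath and math and 32.2% of C-type lectin genes. Over all genes tested the share was 33.3%. Of 137 fbxa genes, 27 were positive (17 without replicate 1 of gsox-1 or of xnp-1) and 12 negative. Of 21 tested fbxb genes, 5 were negative (3 without replicate 1 of gsox-1). Of 62 bath and math genes, 6 were positive and 17 negative. Of 152 C-type lectins, 31 were positive and 18 negative, and clec-88 was at 7.39, 7.76 and 6.36 CPM in xnp-1;gsox-1 libraries, 5.82, 6.48 and 7.52 CPM in gsox-1 libraries, 226, 180.3 and 223 CPM in xnp-1 libraries and 6.75, 7.27 and 4.95 CPM in N2 libraries (interaction -4.93, SE 0.27, edgeR adjusted p = 4.52e-06).

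The remaining lists held few calls or were mixed. An interaction was called in 33.3% of all genes. The share was 20% for core histones, 35.5% for astacins, 45.5% for dosage compensation and 53.3% for sex determination genes. It was 17.6% for intestine, 40% for pals, 29.2% for cytochrome P450 and 33.8% for UDP-glucuronosyltransferase genes. Transthyretin-related genes, nuclear hormone receptors and chemoreceptors had 28.1%, 15% and 6.9%. Of 35 tested core histone genes, many of them near-identical copies, 5 were positive (9 without replicate 1 of xnp-1;gsox-1 or replicate 3 of gsox-1) and 2 negative (1 in 8 of the 12 fits without 1 library, that without replicate 1 of xnp-1;gsox-1 among them). Of 31 astacin metalloproteases, 9 were positive and 2 negative, with 3 to 5 positive in 7 of the 12 fits without 1 library, 5 negative without replicate 3 of gsox-1, 4 without replicate 3 of N2, 1 without replicate 2 of xnp-1;gsox-1, replicate 1 of gsox-1 or replicate 3 of xnp-1, and a median that was below 0 with DESeq2's size factors. Of 11 dosage compensation genes 5 were negative, which fell to 2 or 3 without replicate 2 of xnp-1;gsox-1, replicate 1 of gsox-1 or replicate 2 or 3 of xnp-1. Of 15 sex determination genes, 2 were positive (1 in 8 of the 12 fits without 1 library, that without replicate 1 of xnp-1;gsox-1 among them) and 6 negative. Among these, fem-3 and fem-2, of the male fate pathway, had interactions of -2.48 and -1.14, and mab-3, a DM-domain regulator of male traits, one of 2.89. Of 17 intestine genes 3 were positive, which fell to 1 without replicate 3 of xnp-1;gsox-1, replicate 1 of gsox-1, replicate 1 or 3 of xnp-1 or replicate 1 of N2 and with DESeq2's size factors. Of 30 pals genes, 4 were positive and 8 negative (4 without replicate 2 of xnp-1). Of 65 cytochrome P450 genes, 11 were positive (7 without replicate 3 of xnp-1) and 8 negative. Of 65 UDP-glucuronosyltransferases, 18 were positive and 4 negative, against 16 and 8 without replicate 1 of xnp-1;gsox-1, and the negative count was 2 without replicate 3 of xnp-1;gsox-1, replicate 1 or 2 of gsox-1 or replicate 1 or 3 of xnp-1. Of 57 transthyretin-related genes, 12 were positive and 4 negative, against 9 and 8 without replicate 1 of xnp-1;gsox-1, and 2 were negative without replicate 2 of gsox-1. Of 214 nuclear hormone receptors, 24 were positive (14 without replicate 1 of gsox-1, 13 without replicate 3 of xnp-1) and 8 negative (5 without replicate 3 of gsox-1, replicate 1 of N2 or replicate 3 of xnp-1). Of 29 tested str and srw chemoreceptors, 2 were positive (4 without replicate 1 of xnp-1;gsox-1).

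Against that background, 53 genes kept their response to xnp-1 beside gsox-1, in that both effects were called with 1 sign and the interaction was not called. Of these, 38 were higher and 15 lower with xnp-1. They were chosen by those calls, so their sign and size in the 2 backgrounds are a description. An interaction that was not called does not show that the effects were equal. In simulated counts with few changed genes, 0% of 2-fold interactions were called. The median absolute log2 fold was 1.81 in the gsox-1 background and 1.83 in N2.

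sdha-2 (WBGene00016392, chromosome I, 10683270 to 10685587), a paralogue of the flavoprotein subunit of succinate dehydrogenase, was at 204, 223 and 220.4 CPM in xnp-1;gsox-1 libraries, 73.3, 73.0 and 74.99 CPM in gsox-1 libraries, 267, 264 and 270.4 CPM in xnp-1 libraries and 76.8, 86.7 and 72.7 CPM in N2 libraries. Both groups that carry xnp-1 lay above both that do not, with no overlap. sdha-2 had a log2 fold of 1.55 (SE 0.14) in the gsox-1 background and 1.76 (SE 0.14) in N2, and the interaction was -0.21 (95% interval -0.65 to 0.22, edgeR adjusted p = 0.433). pid-2, a protein of the piRNA pathway, was at 63.996, 73.99 and 76.6 CPM in xnp-1;gsox-1 libraries, 25.7, 24.95 and 25.5 CPM in gsox-1 libraries, 89.1, 100.7 and 101.3 CPM in xnp-1 libraries and 24.8, 33.5 and 27.5 CPM in N2 libraries. nxf-2, of the nuclear RNA export factor family, was at 48.0, 30.3 and 33.2 CPM in xnp-1;gsox-1 libraries, 13.05, 13.9 and 13.4 CPM in gsox-1 libraries, 58.8, 54.2 and 53.0 CPM in xnp-1 libraries and 18.2, 12.7 and 12.3 CPM in N2 libraries. Their interactions of -0.27 and -0.47 missed the threshold (adjusted p = 0.362 and 0.232), and without replicate 1 of xnp-1;gsox-1 that of nxf-2 was -0.70 with adjusted p = 0.0437.

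set-31, a SET-domain protein, was at 179, 116 and 134 CPM in xnp-1;gsox-1 libraries, 55.1, 61.4 and 45.5 CPM in gsox-1 libraries, 96.5, 102 and 94.6 CPM in xnp-1 libraries and 65.5, 50.4 and 43.1 CPM in N2 libraries, higher in xnp-1;gsox-1 than in any other group (interaction 0.52, edgeR adjusted p = 0.188). Further genes higher with xnp-1 in both backgrounds were scrm-4, of the phospholipid scramblase family, at 30.9 to 58.8 CPM in xnp-1;gsox-1, 10.8 to 12.6 in gsox-1, 36.02 to 39.5 in xnp-1 and 9.86 to 15.2 in N2, and fbxa-192, an F-box gene, at 15.8 to 18.2 CPM in xnp-1;gsox-1, 4.54 to 5.63 in gsox-1, 32.8 to 36.7 in xnp-1 and 8.36 to 16.1 in N2. bath-45, of the MATH and BTB domain family, was at 5.01 to 8.69 CPM in xnp-1;gsox-1, 0.937 to 1.74 in gsox-1, 6.68 to 9.38 in xnp-1 and 1.15 to 1.95 in N2. msp-65, a major sperm protein gene, was at 7.95 to 18.9 CPM in xnp-1;gsox-1, 0.971 to 4.37 in gsox-1, 28.2 to 34.1 in xnp-1 and 3.91 to 8.196 in N2. These 4 genes had interactions of 0.30, 0.35, 0.10 and 0.12, none of them past the threshold. With 1 library left out in turn, the effect beside gsox-1 was called in all 12 fits for sdha-2, pid-2, fbxa-192 and bath-45, in 11 for scrm-4, in 10 for nxf-2 and set-31, and in 3 for msp-65.

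Among those lower with xnp-1 in both backgrounds, clec-80, a C-type lectin, was at 26.4, 16.8 and 16.4 CPM in xnp-1;gsox-1 libraries, 54.6, 56.1 and 69.5 CPM in gsox-1 libraries, 11.9, 11.03 and 11.998 CPM in xnp-1 libraries and 93.2, 56.5 and 49.4 CPM in N2 libraries. clec-170, a C-type lectin too, was at 12.1, 12.6 and 12.9 CPM in xnp-1;gsox-1 libraries, 29.6, 29.2 and 37.5 CPM in gsox-1 libraries, 8.999, 14.5 and 10.7 CPM in xnp-1 libraries and 34.8, 28.4 and 24.9 CPM in N2 libraries. For clec-170 the log2 fold was -1.36 in the gsox-1 background and -1.36 in N2, and the interaction had a 95% interval of -0.64 to 0.65. tag-18 was at 31.9 to 58.6 CPM in xnp-1;gsox-1, 104.2 to 110.3 in gsox-1, 48.4 to 58.3 in xnp-1 and 98.6 to 128 in N2 and nep-22, of the neprilysin family of peptidases, at 50.6 to 112.5 CPM in xnp-1;gsox-1, 257 to 279.9 in gsox-1, 77.5 to 116 in xnp-1 and 136 to 258 in N2. Both are on chromosome X, and for both the lowest xnp-1;gsox-1 library was replicate 1. Beside gsox-1 the effect on clec-80, clec-170, tag-18 and nep-22 was called in 7, 8, 5 and 4 of the 12 fits that left out 1 library. The interaction of clec-80, 0.92, missed the threshold here (edgeR adjusted p = 0.069) and passed it without replicate 3 of N2 (adjusted p = 0.0372).

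**Figure D5:**
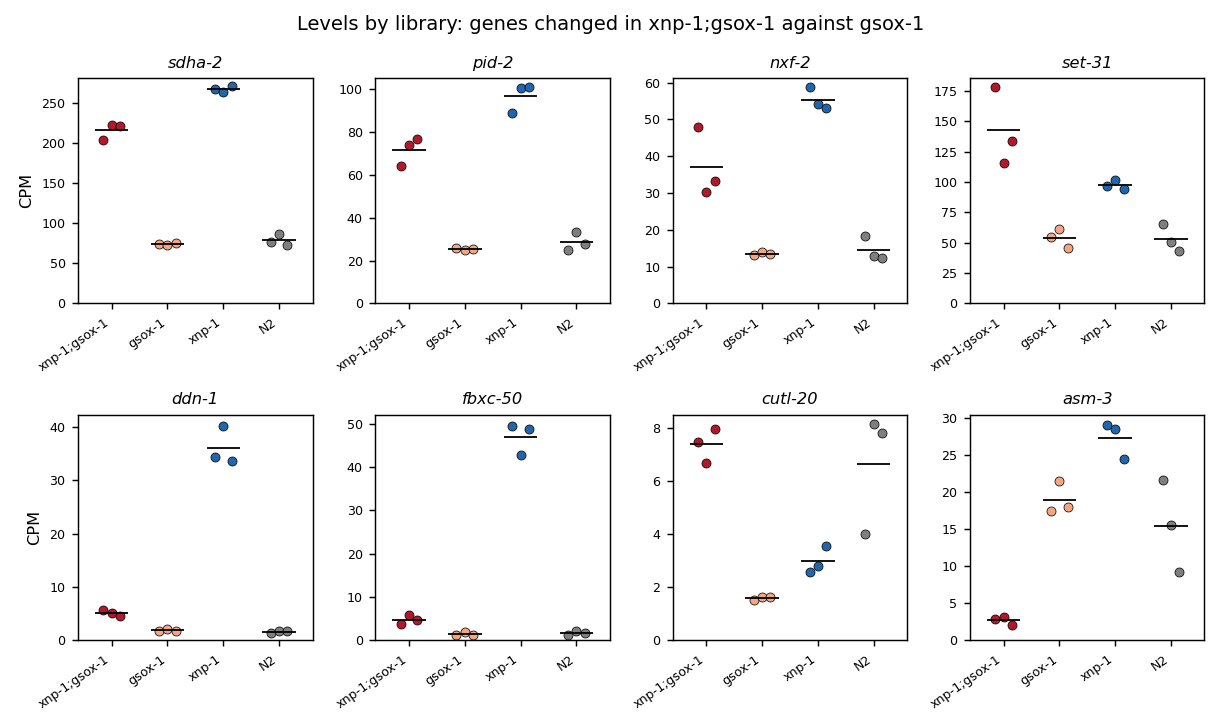
Levels of 8 genes in CPM on linear axes from 0, 1 panel per gene, with a point for each of 3 libraries per group and a bar at the mean. sdha-2, pid-2, nxf-2 and set-31 were high in both groups with xnp-1, ddn-1 and fbxc-50 were higher in xnp-1 than in xnp-1;gsox-1, and cutl-20 and asm-3 differed in opposite directions in the 2 backgrounds.

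Libraries of embryos and L1 larvae were not used to choose these 53 genes, and 48 of them were tested there. In embryos 12 of the 48 (25.0%) changed in libraries labelled xnp1, against N2, in the same direction and none in the other, against calls in 1.11% of all genes tested (0.43% higher). In L1 larvae 8 of 48 (16.7%) did, against 0.481%. Of the 5380 genes called in N2 and not beside gsox-1, the embryo and L1 tables tested 4792, of which 52 (1.09%) changed the same way in embryos and 33 (0.689%) in L1 larvae. sdha-2 was higher by 2.39 on the log2 scale in embryos (edgeR adjusted p = 4.01e-05) and by 2.55 in L1 larvae (adjusted p = 3.48e-05). fbxa-192 was higher by 1.83 and 2.50, and set-31 by 1.53 and 1.39, with adjusted p of at most 0.004928. pid-2 and nxf-2 had log2 folds of 0.87 and 1.0 in embryos and 1.09 and 1.24 in L1 larvae, and none of these passed the test. The embryo and L1 calls vary with the fit: DESeq2 gave 593 in embryos and 234 in L1 larvae, against 197 and 85 here. Leaving out 1 library gave 53 (without replicate 1 of N2) to 157 in embryos and 35 (without replicate 2 of N2) to 79 in L1 larvae.

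A further 2 genes, outside the naming rule, were added after their values were seen. rnh-1.3, of the RNase H family, was at 5.55, 8.87 and 7.61 CPM in xnp-1;gsox-1 libraries, 1.03, 1.21 and 2.73 CPM in gsox-1 libraries, 34.0, 27.01 and 27.3 CPM in xnp-1 libraries and 4.38, 6.24 and 3.58 CPM in N2 libraries (interaction -0.49, SE 0.50). F15D4.5 was at 68.8, 160.1 and 154 CPM in xnp-1;gsox-1 libraries, 10.1, 10.2 and 8.69 CPM in gsox-1 libraries, 127, 156 and 136 CPM in xnp-1 libraries and 13.3, 20.5 and 14.1 CPM in N2 libraries (interaction 0.59, SE 0.40). Without replicate 1 of xnp-1;gsox-1 the interaction of F15D4.5 was 0.89 with adjusted p = 0.0204, and the effect of xnp-1 on rnh-1.3 beside gsox-1 was called in 6 of 12 fits without 1 library. Both rose with xnp-1 in embryos as well, by 3.35 and 2.96 on the log2 scale (edgeR adjusted p = 0.002 and 2.15e-06).

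A further 23 genes changed in 1 direction in both backgrounds with a called interaction, 18 of them with a negative one. ddn-1 was at 5.69, 5.03 and 4.504 CPM in xnp-1;gsox-1 libraries, 1.64, 2.11 and 1.74 CPM in gsox-1 libraries, 34.5, 40.3 and 33.6 CPM in xnp-1 libraries and 1.25, 1.63 and 1.64 CPM in N2 libraries. It rose in both backgrounds, by 1.47 in xnp-1;gsox-1 over gsox-1 and by 4.58 in xnp-1 over N2, with an interaction of -3.11 (SE 0.29, edgeR adjusted p = 5.83e-05). fbxc-50, an F-box gene, was at 3.81, 5.81 and 4.58 CPM in xnp-1;gsox-1 libraries, 1.27, 1.75 and 1.15 CPM in gsox-1 libraries, 49.6, 42.8 and 48.8 CPM in xnp-1 libraries and 1.25, 2.20 and 1.64 CPM in N2 libraries (interaction -3.02). bath-29, btb-19, bath-15 and bath-30, of families with BTB domains, had interactions of -1.17, -1.49, -1.32 and -1.37. heri-1, which has a chromodomain and limits inherited silencing, was at 23.8 to 27.4 CPM in xnp-1;gsox-1, 11.5 to 14.4 in gsox-1, 41.0 to 46.4 in xnp-1 and 12.7 to 14.7 in N2 (interaction -0.76). clec-10, a C-type lectin, was lower with xnp-1 in both, at 15.4 to 17.1 CPM in xnp-1;gsox-1, 41.7 to 46.5 in gsox-1, 8.07 to 11.03 in xnp-1 and 34.3 to 52.4 in N2 (interaction 0.83).

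Calls for the interaction in that class were fragile for some members. The interaction of heri-1 missed the threshold with no filter, without replicate 1 of gsox-1 and without replicate 3 of xnp-1. That of bath-29 missed it without replicate 1 of xnp-1. That of clec-10 missed it in 9 of 19 alternative fits, 8 of them without 1 library (all but replicate 1 of xnp-1;gsox-1, replicate 3 of gsox-1, replicate 3 of N2 and replicate 2 of xnp-1). None changed sign. Beside gsox-1 the effect was called in all 12 fits without 1 library for clec-10, in 11 for ddn-1, in 10 for fbxc-50, in 9 for bath-29, in 6 each for heri-1 and bath-30, in 4 for btb-19 and in 1 for bath-15. snpc-1.2, a paralogue of a SNAPc subunit, was named after its values were seen. It was at 107, 89.5 and 106 CPM in xnp-1;gsox-1 libraries, 33.4, 32.8 and 36.8 CPM in gsox-1 libraries, 144, 142.5 and 139 CPM in xnp-1 libraries and 31.5, 33.3 and 27.2 CPM in N2 libraries, with an interaction of -0.65 that missed the threshold in 9 of 19, 8 of them without 1 library (all but replicates 1 and 3 of xnp-1;gsox-1 and 1 and 2 of N2). Of the 23, 5 (21.7%) changed the same way in embryos and 4 (17.4%) in L1 larvae, against calls in 1.11% and 0.481% of all genes tested. Genes called with opposite signs in the 2 backgrounds, given next, had such shares too. Of 11 tested, 2 (18.2%) in embryos and 1 (9.09%) in L1 larvae changed in the direction of xnp-1 against N2.

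In 12 genes the effect of xnp-1 was called in both backgrounds with opposite signs. vit-1 is given above. asm-3, an acid sphingomyelinase, was at 2.89, 3.06 and 2.05 CPM in xnp-1;gsox-1 libraries, 17.5, 21.6 and 17.96 CPM in gsox-1 libraries, 29.1, 28.5 and 24.5 CPM in xnp-1 libraries and 21.6, 15.5 and 9.17 CPM in N2 libraries. asm-3 had a log2 fold of -2.83 in the gsox-1 background (SE 0.30, adjusted p = 9.39e-04) and 0.83 in N2 (SE 0.28, adjusted p = 0.0277), for an interaction of -3.66 (edgeR adjusted p = 1.44e-04). clec-60 and clec-218, C-type lectins, fell in xnp-1;gsox-1 against gsox-1 and rose in xnp-1 against N2. clec-60 was at 0.493 to 0.940 CPM in xnp-1;gsox-1, 4.03 to 5.05 in gsox-1, 8.23 to 10.4 in xnp-1 and 1.98 to 3.46 in N2, with an interaction of -4.3, and clec-218 was at 6.17 to 10.03 CPM in xnp-1;gsox-1, 22.9 to 30.7 in gsox-1, 36.04 to 42.6 in xnp-1 and 13.2 to 18.6 in N2, with one of -2.91. spl-2, a sphingosine phosphate lyase, did so too (interaction -2.18), but its effect beside gsox-1 was called in 2 of 12 fits without 1 library. In N2, the effect on asm-3 was called in 8 of 12.

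cutl-20, a cuticlin-like gene, went the other way. It was at 7.501, 6.69 and 7.997 CPM in xnp-1;gsox-1 libraries, 1.502, 1.63 and 1.61 CPM in gsox-1 libraries, 2.57, 2.81 and 3.55 CPM in xnp-1 libraries and 4.01, 8.17 and 7.82 CPM in N2 libraries. xnp-1;gsox-1 and N2 libraries overlapped, and gsox-1 libraries were the lowest. The log2 fold was 2.22 in the gsox-1 background and -1.16 in N2, with an interaction of 3.39 (SE 0.40, edgeR adjusted p = 2.01e-04). oac-6, of the O-acyltransferase family, was at 25.1 to 31.8 CPM in xnp-1;gsox-1, 12.4 to 14.1 in gsox-1, 12.2 to 18.6 in xnp-1 and 21.1 to 32.04 in N2 (interaction 1.80), and its effect beside gsox-1 was called in 4 of 12 fits without 1 library. F56A4.3 (WBGene00018911, chromosome V, 2453414 to 2456147), named after its values were seen, was at 72.8, 29.6 and 22.2 CPM in xnp-1;gsox-1 libraries, 0.0939, 0.0728 and 0.260 CPM in gsox-1 libraries, 28.8, 23.4 and 18.8 CPM in xnp-1 libraries and 302, 165 and 113 CPM in N2 libraries. Its gsox-1 libraries were near 0 while xnp-1;gsox-1 libraries were not, although both labels hold gsox-1, and the interaction was 11.21 (SE 0.85, edgeR adjusted p = 1.82e-05). F56A4.3 was also lower with xnp-1 in embryos, with a log2 fold of -1.84 (adjusted p = 0.0093), and in L1 larvae, with -1.92 (adjusted p = 0.00993).

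In 21 genes an effect was called beside gsox-1, was not called in N2, and differed between them, with 8 positive and 13 negative interactions. argk-1, an arginine kinase, was at 26.3, 16.7 and 15.9 CPM in xnp-1;gsox-1 libraries, 5.73, 5.70 and 5.91 CPM in gsox-1 libraries, 10.01, 10.98 and 10.9 CPM in xnp-1 libraries and 17.2, 10.6 and 11.4 CPM in N2 libraries (interaction 2.06, SE 0.35, edgeR adjusted p = 0.0013). Its gsox-1 libraries lay below all others. scb-1 was at 16.9, 18.7 and 20.6 CPM in xnp-1;gsox-1 libraries, 7.04, 4.76 and 4.42 CPM in gsox-1 libraries, 22.3, 19.5 and 23.2 CPM in xnp-1 libraries and 29.5, 22.6 and 24.0 CPM in N2 libraries (interaction 2.02, SE 0.30), again with gsox-1 libraries lowest. tsp-2 had an interaction of 1.77, which missed the threshold without replicate 2 of xnp-1;gsox-1, replicate 1 of gsox-1, replicate 1 of N2 or replicate 2 or 3 of xnp-1. clec-70, a C-type lectin, was at 0.582, 1.70 and 0.699 CPM in xnp-1;gsox-1 libraries, 9.83, 8.42 and 9.396 CPM in gsox-1 libraries, 2.13, 3.67 and 5.27 CPM in xnp-1 libraries and 3.89, 1.32 and 2.55 CPM in N2 libraries (interaction -3.72, SE 0.69). lipl-1, a lysosomal lipase, was at 9.34, 9.46 and 4.17 CPM in xnp-1;gsox-1 libraries, 20.2, 25.6 and 27.02 CPM in gsox-1 libraries, 30.8, 36.1 and 29.7 CPM in xnp-1 libraries and 27.3, 17.7 and 17.1 CPM in N2 libraries (interaction -2.30). cpt-5, of the carnitine palmitoyltransferase family, was at 18.3 to 38.4 CPM in xnp-1;gsox-1, 79.2 to 106 in gsox-1, 36.4 to 55.9 in xnp-1 and 38.1 to 74.4 in N2 (interaction -1.57). ugt-30, a UDP-glucuronosyltransferase, was at 5.73 to 8.08 CPM in xnp-1;gsox-1, 16.1 to 23.2 in gsox-1, 18.9 to 24.7 in xnp-1 and 11.6 to 25.2 in N2 (interaction -1.85). For clec-70 the gsox-1 libraries were the highest, and for lipl-1 the xnp-1;gsox-1 libraries were the lowest. Beside gsox-1 the effect was called in all 12 fits without 1 library for scb-1, in 10 for argk-1, in 9 for clec-70, in 6 for cpt-5 and in 4 each for tsp-2 and lipl-1 and in 3 for ugt-30.

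gsox-1 without xnp-1 changed 4 genes at the threshold, 1 of them higher (0.00572% of those tested) and 3 lower (0.0172%). cutl-20, scb-1 and F56A4.3 were lower in gsox-1 than in N2, with log2 folds of -2.07, -2.23 and -10.40 (edgeR adjusted p = 0.0494, 0.00258 and 1.55e-04). srw-85, a chemoreceptor gene, was higher by 3.72 (adjusted p = 0.048) and was at 10.3, 8.37 and 12.4 CPM in xnp-1;gsox-1 libraries, 6.95, 7.04 and 4.03 CPM in gsox-1 libraries, 0, 0.0985 and 0.0471 CPM in xnp-1 libraries and 0.673, 0.195 and 0.490 CPM in N2 libraries. Every library labelled with gsox-1 lay above every other (interaction 3.93, SE 0.81). Leaving out 1 library in turn, the difference between gsox-1 and N2 was called for scb-1 and F56A4.3 in 12 of 12 fits each, for srw-85 in 4 and for cutl-20 in 2. The count of calls was 12 without replicate 1 of xnp-1;gsox-1, 2 without any of its other replicates, without replicate 1 or 2 of gsox-1, without replicate 2 of N2 or without replicate 3 of xnp-1, and 60 with DESeq2. At an unadjusted p under 0.05, 858 genes differed.

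By chromosome, negative interactions were most frequent on I, where 22.3% of 2737 tested genes were called, and least frequent on X, with 9.43% of 2492, against 16.1% of all genes. Positive interactions ranged from 15% on III to 18.9% on IV. On the mitochondrial genome 1 of 14 genes was called, with a positive interaction. X genes had a median log2 fold of -0.18 in the gsox-1 background and -0.34 in N2.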

How the data were processed

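The authors deposited raw counts per gene. Per the file headers, featureCounts 2.0.6 counted reverse-stranded reads over exons of the WormBase WS280 gene set for L4, with a minimum mapping quality of 10 and no pair counting, so both mates of a pair count as reads; version 2.0.1 was used for embryos and L1 larvae. FastQC, Trim Galore, STAR and SAMtools are named in the submitters' processing notes without versions. Coordinates are those of the deposited table. A table of small RNA counts covers no L4 library and was not used.

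Counts were filtered with filterByExpr, scaled by TMM and tested in edgeR 4.0.16 (R 4.3.3), with a robust quasi-likelihood fit over all 4 L4 groups, which share 1 estimate of the spread, and Benjamini-Hochberg adjustment over all genes tested. Calls are at an adjusted p under 0.05, and an interaction on the log2 scale depends on that scale. Levels are CPM after TMM and compare libraries, not genes of different length. Embryo and L1 groups were fitted together in the same way. Alternatives were DESeq2 1.42.0, other scalings and filters, no robust estimation, the replicate number as a block, and leaving out each library in turn, where the lone pair left in a group is assumed to vary like the other groups. The scripts were tested on simulated counts in which 100 genes had a 2-fold and 100 a 4-fold interaction and no other gene had one. Of these, 0% and 39% were called, and 7.14% of the calls were false. Far fewer genes had an interaction there than were called in these data, so the adjusted threshold differs.

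The labels call the libraries biological replicates, and no source says whether they came from separate cultures, so p-values measure the spread between these libraries. Same-numbered L4 libraries deviated together for some pairs of groups only (correlations of -0.41 to 0.55, over 0.1 in 9 of 18), so the numbers do not pair the 4 groups. They did for xnp-1 with N2, for xnp-1;gsox-1 with xnp-1, and for xnp-1;gsox-1 with N2, and for the L1 groups, where the correlations were 0.505 to 0.785. Floors of 3 counts over a group cover the counting error of independent reads only, and mates of a pair are not independent.

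Members and gene lists were chosen with earlier results of these data known. Named genes were, per direction, the 12 of largest interaction called in all 12 fits without 1 library with a mean log2 CPM of at least 1, up to 8 per pattern of calls, and up to 4 per list by adjusted p, from the top, except 1 gene that is not reported here. Of 46926 gene identifiers, 44114 had a name in the gene tables used. Of 47 lists, 46 had tested members, and the mitochondrial list matched none by name. Families of near-identical copies may share or lose reads.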

Additional observations from a re-analysis of the deposited data

Results flagged for a closer look

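By the test of the difference itself, the effect of xnp-1 differed between the gsox-1 and N2 backgrounds in 5826 genes, with 3007 higher and 2819 lower in the gsox-1 background. The named genes among them are gathered here by role, each with its log2 interaction.

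In N2 xnp-1 went with more transcript of yolk and oocyte genes, and less or none of that rise was measured beside gsox-1. The 6 vitellogenins had a median log2 fold of -4.19 there, and vit-1 was called lower. Yolk genes were among the lowest, with vit-5 at -12.31, vit-3 at -12.07, vit-4 at -11.96, vit-6 at -10.47, vit-2 at -10.09 and vit-1 at -8.87. Eggshell and maternal genes included pos-1 at -5.33, puf-11 at -4.01, spn-4 at -3.97, egg-2 at -3.91, egg-5 at -3.73, egg-3 at -3.67, gna-2 at -3.33, pal-1 at -3.07 and mei-2 at -2.81. Among germ plasm, stem cell and timing genes were meg-1 at -8.57, nos-2 at -5.16, meg-3 at -4.29, lin-41 at -3.55, gld-3 at -2.97, sygl-1 at -2.6, nos-1 at -2.51, glp-1 at -2.51 and glh-3 at -1.85. Meiosis and repair genes included zim-2 at -2.30, spo-11 at -1.63, zhp-3 at -1.6, mre-11 at -1.73, xpf-1 at -1.54, polh-1 at -1.53 and msh-2 at -1.47. Of the chromatin genes there were mes-4 at -1.94, lin-54 at -1.86, efl-1 at -1.83, asfl-1 at -1.76, hira-1 at -1.58, arle-14 at -1.55 and spr-5 at -1.36. Small RNA genes included alg-5 at -3.23, hrde-1 at -2.75, mut-2 at -2.07 and tofu-5 at -1.44, and sex determination genes fem-3 at -2.48 and fem-2 at -1.14. Of the genotype genes, gsox-1 was at -1.67. The xnp-1 transcript, at -0.94, did not rise: it fell in both backgrounds, and by more beside gsox-1. Collagens and a uterine gene that were high in xnp-1 alone reached col-119 at -8.46, col-143 at -8.36, col-8 at -8.19, ule-3 at -8.13, col-101 at -7.37 and col-20 at -6.86. The remaining genes of this direction were clec-88 at -4.93, skr-10 at -4.35, hsp-43 at -2.75, spe-39 at -1.85 and skr-17 at -1.63.

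The opposite held for a set of cuticle genes, which were low in xnp-1 and not in xnp-1;gsox-1. Collagens included col-47 at 6.45, col-110 at 5.38, col-79 at 5.34, dpy-7 at 5.30, bli-2 at 5.14, lon-3 at 4.90, dpy-9 at 4.84, dpy-10 at 4.49, rol-6 at 4.35 and sqt-2 at 4.32. gtnt and surface genes were represented by gtnt-18 at 6.22, gtnt-17 at 6.08, srf-5 at 5.20, spp-13 at 5.12, gtnt-31 at 5.06 and spi-1 at 5.02. Moulting, hedgehog-related and cuticlin genes included wrt-1 at 4.70, grl-15 at 4.62, cutl-28 at 4.44, mlt-8 at 3.92, phg-1 at 3.68, ptr-15 at 3.47, acn-1 at 3.32, lin-42 at 3.13 and ptr-19 at 3.06. Among the others were peptides and metabolic genes, with ins-35 at 4.22, ins-27 at 3.56, gst-38 at 2.90, acox-1.2 at 2.62, gst-22 at 1.96 and rpl-39 at 1.57. Sperm, histone and male genes had his-70 at 3.81, mab-3 at 2.89 and spe-4 at 2.05, and the chemoreceptor srw-85 at 3.93.

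Genes that responded to xnp-1 in both backgrounds differed in size or sign. In 1 direction in both, ddn-1 at -3.11, fbxc-50 at -3.02, btb-19 at -1.49, bath-30 at -1.37, bath-15 at -1.32, bath-29 at -1.17, heri-1 at -0.76 and snpc-1.2 at -0.65 rose less beside gsox-1, and clec-10 at 0.83 fell less. In opposite directions, vit-1 at -8.87, clec-60 at -4.3, asm-3 at -3.66, clec-218 at -2.91 and spl-2 at -2.18 fell beside gsox-1. F56A4.3 at 11.21, cutl-20 at 3.39 and oac-6 at 1.80 were higher in xnp-1;gsox-1 than in gsox-1. For F56A4.3 and cutl-20 the gsox-1 libraries were the lowest of all groups, and xnp-1;gsox-1 libraries did not exceed the range of N2. With no call in N2, clec-70 at -3.72, lipl-1 at -2.30, ugt-30 at -1.85 and cpt-5 at -1.57 were lower beside gsox-1, and argk-1 at 2.06, scb-1 at 2.02 and tsp-2 at 1.77 were higher.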

How the results depend on the processing

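The counts of interaction calls, of xnp-1 against N2 and of xnp-1;gsox-1 against xnp-1 stayed within 1.5 times of the values given, under every alternative run. For each of these, the direction with more calls changed with DESeq2's size factors. The interaction gave 4327 (without replicate 1 of gsox-1) to 6126 (without replicate 3 of xnp-1;gsox-1) calls with 1 library left out, 6944 with DESeq2 and 5157 with no filter, and 3931 of the 5826 genes were called in all 12 fits without 1 library. The count for xnp-1;gsox-1 against gsox-1 was 591 with DESeq2, 23 when those groups were fitted alone and 38 to 152 with 1 library left out. With library totals its split was 107 higher to 40 lower. For gsox-1 against N2 the count was 60 with DESeq2 and 2 to 12 with 1 library left out. xnp-1 against N2 gave 593 calls in embryos and 234 in L1 larvae with DESeq2, and 53 to 157 in embryos and 35 to 79 in L1 larvae with 1 library left out. The cause of these shifts was not tested. With the replicate number as a block, the interaction had 6414 calls, xnp-1;gsox-1 against gsox-1 135, gsox-1 against N2 2, embryos 337 and L1 larvae 102. Where the numbers paired the libraries, the block moved no count by over 1.5 times (8967 for xnp-1 against N2 and 8265 for xnp-1;gsox-1 against xnp-1). Of 46 list medians, 3 changed sign: astacin metalloproteases at -0.019 with DESeq2's size factors, and, with 1 library left out, heterochronic genes (-0.68 to 0.18) and pan-neuronal genes (-0.22 to 0.41). Of 130 named genes, 116 had a called interaction, 109 of them under every alternative that gave a value (DESeq2 gave none for col-119 and col-20), and none reversed. Depth limits the folds of genes with few reads outside xnp-1, such as skr-7.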
